A study of Rattus norvegicus with 5 samples.

Results

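Siglec1, Aif1, Fcgr1a, Adgre1, C1qa, C1qb, Cd163, Gpnmb and Cd68, genes commonly used to mark macrophages and microglia, were followed across tumours of the rat glioma line C6-L grown in mice. The members were given by symbol, and every probe whose RefSeq accession maps to one of them was used. This gave 11 probes for 9 genes, out of 30363 usable probes and 15442 gene symbols on the rat array. All tumours were xenografts of C6-L cells in BALB/c nu/nu nude mice, which lack a thymus, and the labels give an age of 6 weeks. RNA came from 3 metastatic lung nodules and from 1 primary tumour that had received γ-irradiation, each with a labelled time point of 6 weeks after the irradiation. It also came from 1 primary tumour without irradiation, with a labelled time point of 6 weeks after the cells were implanted. According to its stated design the study asked how irradiated primaries differ from primaries without irradiation, and how the nodules differ from irradiated primaries.

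Macrophages take up dying cells and opsonised particles, and microglia are the resident macrophages of the brain, from which glioma lines such as C6 derive. Some of their markers are surface receptors induced by interferon, some are secreted proteins of the complement system, and others belong to scavenging and to the lysosome, where engulfed material is broken down. Nude mice keep their macrophages, whereas T cells that need a thymus are largely missing. The host is a mouse and the probes are designed to rat transcripts, so a rat probe may read host RNA, tumour RNA or both. Which species gave the signal of a probe was not tested. In bulk tissue, fewer cells of a type and less RNA per cell cannot be told apart.

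All levels below are log2 signals relative to the 75th percentile of the same array, so that 0 is the brightness of that percentile, and a level of one probe is not set against that of another. Each of the 9 genes had a probe well above background on all 5 arrays. Differences were tested with limma over 18913 features, and a feature was called where its p, adjusted by the Benjamini-Hochberg method, was under 0.05. Each primary is 1 array, so the error in every test was estimated from the 3 nodules and taken to apply to the primary too. Nothing in the labels states that the nodules are from different mice, and the p-values then speak for the variation among these nodules. That variation may be technical in part, and markers of alveolar and club cells and of heart also differed among the nodules, as given below. The nodules occupied one row of the single slide, and that row cannot be told apart from the nodule group. The comparisons with the 2 primaries share the same 3 nodules and are not independent.

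The 9 genes fell into a set of 6 that was higher in the nodules than in the non-irradiated primary (Siglec1, Aif1, Fcgr1a, Adgre1, C1qa and C1qb) and a set of 3 that was lower (Cd163, Gpnmb and Cd68). All 9 passed the threshold in limma, where 18.6% of all features tested did (9.72% higher and 8.85% lower). Against the irradiated primary 0 of 9 passed, where 3.72% of all features did (0.909% higher and 2.81% lower). All 3 nodules lay on one side of the non-irradiated primary for 9 of 9 members, as they did for 76.9% of features (40.1% above and 36.8% below). They lay on one side of the irradiated primary for 7 members, above it for Aif1 alone, beside 68.1% of features (36.2% above and 31.8% below). In that comparison Cd68 and Fcgr1a were the 2 members with an unadjusted p under 0.05 (adjusted p = 0.0749 and 0.150, limma). The median difference over the 9 genes was 1.20 against the non-irradiated primary and -0.21 against the irradiated primary, beside 0.038 and 0.034 over all features tested. Being called against the non-irradiated primary and not against the irradiated primary was common on these arrays, at 16.9% of features. Which members were called against the non-irradiated primary depended on the nodule left out, whereas all 9 kept their direction. Across these fits the difference was 1.167 to 1.251 for C1qb and -2.804 to -2.165 for Cd163. Each such fit estimated its error from the remaining nodules alone, so the number of calls moved for all features too. Without nodule 2, 0 of 9 members and 0% of all features passed, with adjusted p in limma from 0.0657 to 0.117 for the members, and without nodule 3, 3 of 9 members passed (Aif1, Fcgr1a and C1qb) beside 1.82% of all features. Without nodule 1, all 9 passed beside 33.9% of all features.

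**Figure D1:**
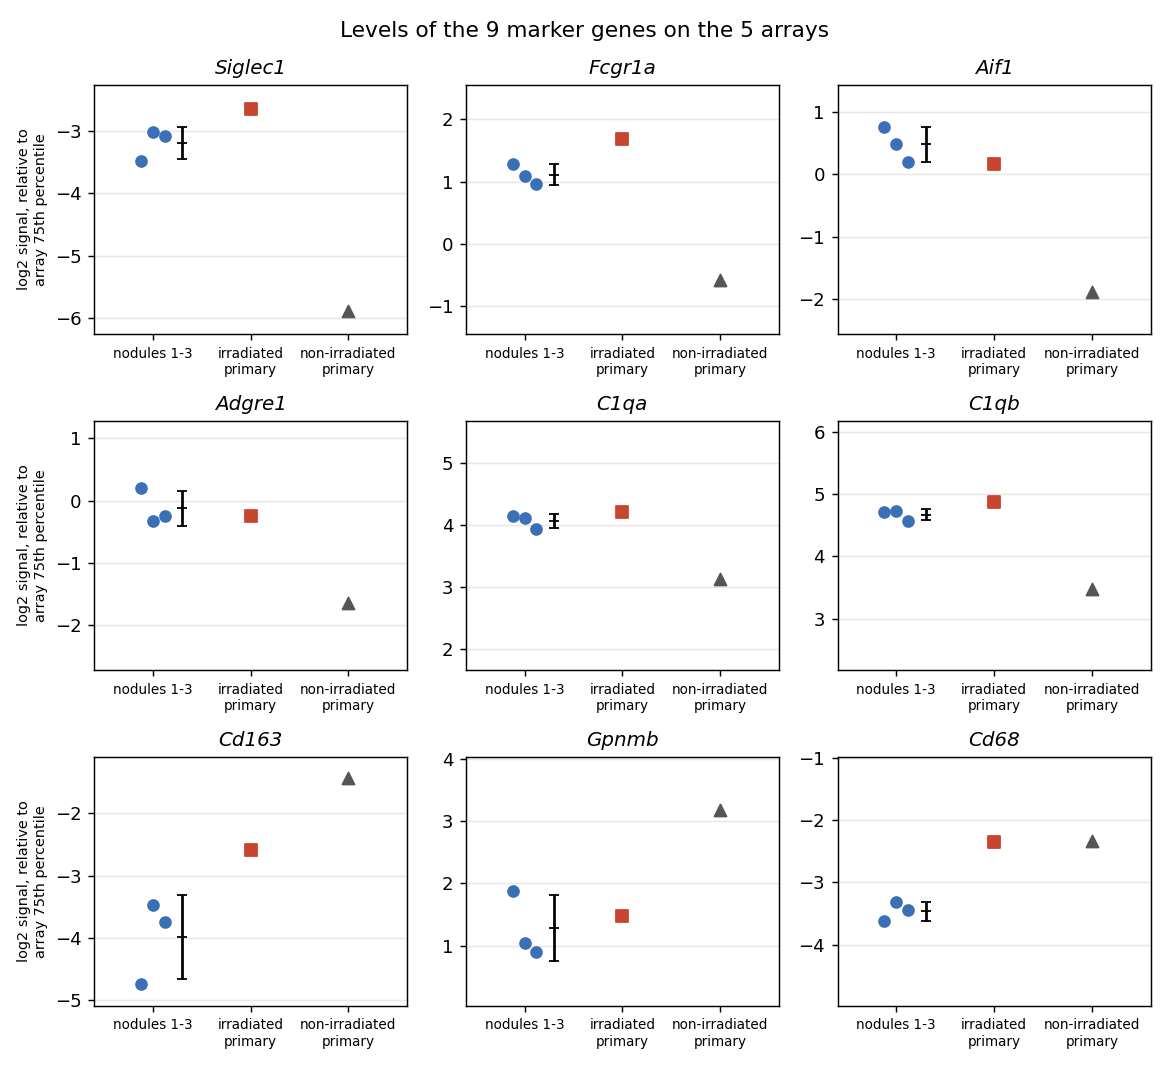
Log2 signal of the probe that stands for each of the 9 genes, relative to the 75th percentile of its array, in the 3 nodules (blue circles, with their mean and SD in black), the irradiated primary (red square) and the non-irradiated primary (grey triangle). Every panel spans 4 log2 units. In the upper 6 panels the non-irradiated primary lies below all nodules, and in the lower 3 it lies above them, with the irradiated primary close to it for Cd68 only.

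Among the receptors that interferon induces, Siglec1 (sialoadhesin, a lectin that binds sialic acid on other cells) showed the widest span. Its level was -3.48, -3.02 and -3.08 in nodules 1, 2 and 3, -2.64 in the irradiated primary and -5.88 in the non-irradiated primary. The non-irradiated primary was far below the other 4 arrays, and all 3 nodules were below the irradiated primary. The nodules were 6.45-fold higher than the non-irradiated primary (log2 difference 2.69, SE 0.28, adjusted p = 0.0131 in limma, higher in 3 of 3 nodules). With the background corrected by normexp this difference was 1.08 (adjusted p = 0.0188 in limma). The difference of -0.55 from the irradiated primary did not pass (95% interval -1.28 to 0.18, adjusted p = 0.332 in limma). The Siglec1 probe was printed many times on the array, and 9 to 10 spots stood behind each value, so this member is read more often than the others.

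Fcgr1a encodes the high-affinity receptor for the constant part of IgG. Its level was 1.29, 1.09 and 0.96 in the nodules, 1.69 in the irradiated primary and -0.58 in the non-irradiated primary. The irradiated primary was highest, the nodules followed within a range narrower than their gap to either primary, and the non-irradiated primary was lowest. The nodules were 3.24-fold higher than the non-irradiated primary (log2 difference 1.69, SE 0.17, adjusted p = 0.0127 in limma). All 3 nodules were below the irradiated primary by a mean of 0.58 (95% interval of the difference -1.02 to -0.14), which passed an unadjusted p but not the adjustment (adjusted p = 0.150 in limma). A second Fcgr1a probe gave the same order of groups, with -2.56, -2.69 and -2.89 in the nodules, -1.99 in the irradiated primary and -4.18 in the non-irradiated primary. Tested on its own, it was 1.47 higher in the nodules than in the non-irradiated primary (SE 0.22, adjusted p = 0.0198 in limma).

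Of the general macrophage markers, Aif1 encodes Iba1, an actin-binding protein of macrophages and microglia used widely in brain histology. Its brighter probe read 0.76, 0.49 and 0.20 in the nodules, 0.17 in the irradiated primary and -1.89 in the non-irradiated primary. The nodules and the irradiated primary lay close together, with nodule 3 just above the irradiated primary, and the non-irradiated primary was well below them. By this probe the nodules were 5.20-fold higher than the non-irradiated primary (log2 difference 2.38, SE 0.25, adjusted p = 0.0131 in limma), and 0.31 above the irradiated primary without passing (95% interval -0.33 to 0.95, adjusted p = 0.523 in limma).

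The second Aif1 probe, assigned to the same transcript accession and printed as 1 spot, went the other way. It read -7.91, -7.05 and -8.55 in the nodules, -6.20 in the irradiated primary and -4.28 in the non-irradiated primary, and only the last was well above background. The nodules were at least 5.11-fold lower than the non-irradiated primary by this probe, a bound set by the lowest signal well above background on each nodule's array. This probe entered the test only through the non-irradiated primary, where it was high, so no p-value is given for it. When both probes were averaged, the sign of the Aif1 difference turned, to -0.59 (adjusted p = 0.343 in limma), so the direction of Aif1 holds for its brighter probe only. The part of the transcript that each probe reads was not analysed here.

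**Figure D2:**
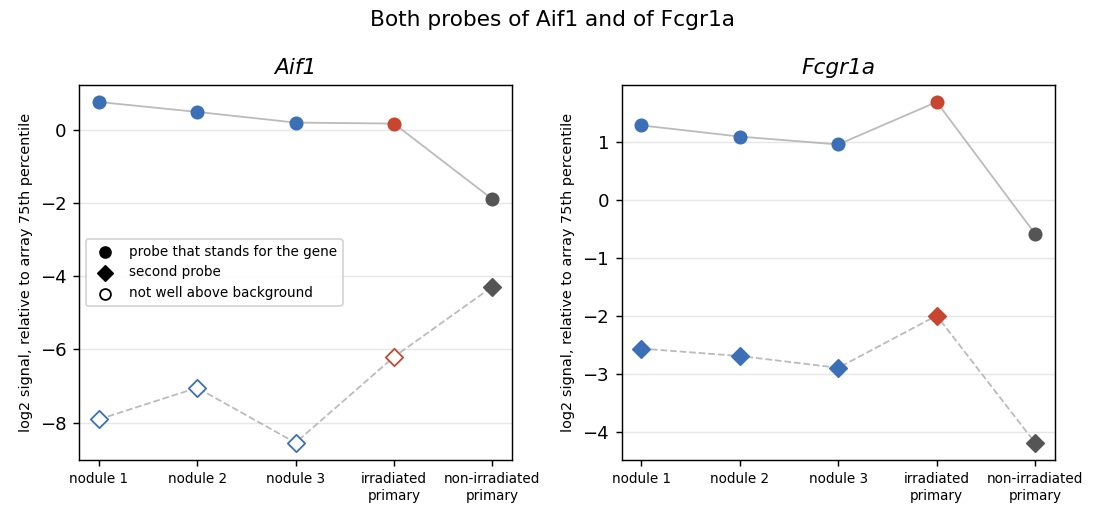
Log2 signal relative to the array's 75th percentile for both probes of Aif1 (left) and of Fcgr1a (right) on each of the 5 arrays. Circles are the probe that stands for the gene, diamonds the second probe, and open symbols values not well above background. The Fcgr1a probes keep the same order of groups, whereas the second Aif1 probe is highest in the non-irradiated primary, at -4.28, where the brighter probe is lowest.

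Adgre1 encodes F4/80, an adhesion receptor that marks rodent macrophages. Its level was 0.20, -0.32 and -0.25 in the nodules, -0.25 in the irradiated primary and -1.64 in the non-irradiated primary. The irradiated primary lay inside the range of the nodules, and the non-irradiated primary lay below all of them. The nodules were 2.85-fold higher than the non-irradiated primary (log2 difference 1.51, SE 0.25, adjusted p = 0.0244 in limma). The difference of 0.12 from the irradiated primary had a 95% interval of -0.53 to 0.77.

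C1qa and C1qb encode chains of C1q, the recognition unit of the classical complement pathway, which tissue macrophages secrete. C1qa read 4.14, 4.11 and 3.94 in the nodules, 4.21 in the irradiated primary and 3.13 in the non-irradiated primary. C1qb read 4.72, 4.73 and 4.56 in the nodules, 4.88 in the irradiated primary and 3.47 in the non-irradiated primary. For both chains the irradiated primary was the highest array and the non-irradiated primary the lowest, and the nodules varied least of all members (SD 0.11 and 0.093, n = 3). The nodules were 1.91-fold higher than the non-irradiated primary for C1qa (log2 difference 0.93, SE 0.13, adjusted p = 0.0192 in limma) and 2.29-fold higher for C1qb (1.20, SE 0.13, adjusted p = 0.0132 in limma). From the irradiated primary they differed by -0.14 (95% interval -0.49 to 0.20) and by -0.21 (95% interval -0.54 to 0.12). The probe of the other C1q chain gene, C1qc, was not well above background on any array.

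The 2 complement genes lie close together on one strand of chromosome 5 in RefSeq's rat assembly GRCr8. The 250 bases before each start are shown to let the 2 windows be compared. RefSeq's promoter table held 6 of the 9 members (not Siglec1, Aif1 and Fcgr1a). Capitals mark matches, on either strand, to GAGGAA (the core bound by PU.1, the main transcription factor of macrophages), TCATGTG (the M-box of the MITF family), TGACTCA (AP-1) and the interferon response core (GAAA, any 2 bases, GAAA). These motifs were chosen with the values known, and no 2 matches overlapped in the members. Over 33469 promoter windows of equal length, 23.3% held GAGGAA, 3.07% TCATGTG, 4.05% TGACTCA and 3.41% the interferon response core. C1qb held the M-box letters at 227 and GAGGAA at 247 and 90 bases before its start, and C1qa held the M-box letters at 130 bases. A match describes letters, not a binding site. The windows are rat DNA and the host is a mouse, so they need not be the promoters behind the RNA measured.
C1qa (chr5:154419934-154420183, minus strand): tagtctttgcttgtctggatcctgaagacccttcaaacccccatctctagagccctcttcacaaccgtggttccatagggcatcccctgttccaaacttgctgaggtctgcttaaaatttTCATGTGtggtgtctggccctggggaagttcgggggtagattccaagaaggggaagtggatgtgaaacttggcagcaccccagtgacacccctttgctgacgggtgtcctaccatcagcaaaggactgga
C1qb (chr5:154407828-154408077, minus strand): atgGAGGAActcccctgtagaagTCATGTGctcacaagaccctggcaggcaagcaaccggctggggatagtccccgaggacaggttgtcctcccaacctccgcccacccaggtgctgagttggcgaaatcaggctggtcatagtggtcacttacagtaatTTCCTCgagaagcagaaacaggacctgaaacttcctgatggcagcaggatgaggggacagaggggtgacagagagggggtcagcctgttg

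The 3 remaining members belong to scavenging and to the lysosome. Cd163 encodes the receptor that clears haemoglobin bound to haptoglobin. Its level was -4.74, -3.46 and -3.74 in the nodules, -2.59 in the irradiated primary and -1.44 in the non-irradiated primary. The groups did not overlap, and the nodules varied more than for any other member (SD 0.67, n = 3), with nodule 1 lowest. The nodules were 5.84-fold lower than the non-irradiated primary (log2 difference -2.54, SE 0.54, adjusted p = 0.0399 in limma, lower in 3 of 3 nodules). The difference of -1.39 from the irradiated primary did not pass (95% interval -2.80 to 0.014, adjusted p = 0.232 in limma).

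Gpnmb encodes a glycoprotein of lysosomes and melanosomes that lipid-laden and tumour-associated macrophages express, and that melanoma and some glioma cells express too. Its level was 1.89, 1.05 and 0.90 in the nodules, 1.48 in the irradiated primary and 3.17 in the non-irradiated primary. The irradiated primary lay between nodule 1 and the other nodules, and the non-irradiated primary stood above all 4. The nodules were 3.71-fold lower than the non-irradiated primary (log2 difference -1.89, SE 0.41, adjusted p = 0.0423 in limma), and differed from the irradiated primary by -0.20 (95% interval -1.28 to 0.88).

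Cd68 encodes a lysosomal membrane glycoprotein of phagocytes. Its level was -3.62, -3.32 and -3.44 in the nodules, -2.36 in the irradiated primary and -2.34 in the non-irradiated primary. It was the one member for which both primaries read alike and both stood above every nodule. The nodules were 2.18-fold lower than the non-irradiated primary (log2 difference -1.12, SE 0.22, adjusted p = 0.0338 in limma). The difference from the irradiated primary was of like size, -1.11 (95% interval -1.68 to -0.53, unadjusted p = 0.0046), with an adjusted p of 0.0749 in limma.

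Cd163 lost its call against the non-irradiated primary under 4 of the processing alternatives, Gpnmb under 3 and Cd68 under 1, each keeping its direction. Siglec1, Fcgr1a, Adgre1, C1qa and C1qb kept theirs under every processing alternative that measured them, leaving out a nodule aside. The windows before the starts of Gpnmb and Cd163, the members furthest below the non-irradiated primary, are shown for comparison with those of the C1q genes. Gpnmb held the M-box letters at 22, TGACTCA at 87 and GAGGAA at 181 bases before its start, while the Cd163 window held no match. Cd68, not shown, held TGACTCA at 80 and 205 and GAGGAA at 27 bases, and Adgre1 held the interferon response core at 219 and GAGGAA at 207 bases.
Gpnmb (chr4:79340878-79341127, plus strand): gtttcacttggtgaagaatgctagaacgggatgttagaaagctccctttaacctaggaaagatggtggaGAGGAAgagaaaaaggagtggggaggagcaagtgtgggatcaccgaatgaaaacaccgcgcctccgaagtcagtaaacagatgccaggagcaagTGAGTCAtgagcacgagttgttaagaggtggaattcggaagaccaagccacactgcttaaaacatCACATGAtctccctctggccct
Cd163 (chr4:158770524-158770773, plus strand): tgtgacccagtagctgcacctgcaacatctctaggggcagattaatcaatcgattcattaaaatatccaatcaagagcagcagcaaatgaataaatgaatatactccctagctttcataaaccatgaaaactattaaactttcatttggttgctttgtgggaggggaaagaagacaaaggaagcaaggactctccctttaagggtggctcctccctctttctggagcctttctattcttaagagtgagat

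Compared with the mean of both primaries, 5 of 9 members passed in limma, where 15.6% of all features did (6.99% higher and 8.58% lower). Aif1 by its brighter probe (1.34, adjusted p = 0.0244), Siglec1 (1.07, adjusted p = 0.0427) and C1qb (0.50, adjusted p = 0.0413) were higher in the nodules. Cd68 (-1.11, adjusted p = 0.0271) and Cd163 (-1.97, adjusted p = 0.0461) were lower. Fcgr1a, Adgre1, C1qa and Gpnmb did not pass, with adjusted p in limma from 0.0556 to 0.0949. Under the processing alternatives Siglec1 lost this call in 6, with a value down to 0.35 and adjusted p up to 0.169 in limma, both under normexp. Cd163 lost it in 5 and C1qb in 2, with the direction kept, and Aif1 turned to -0.62 when its probes were averaged. Without nodule 2, 0 of the 9 passed beside 0.063% of all features, without nodule 3, 0 passed beside 1.21%, and without nodule 1, 8 passed beside 30.5%. This mean pools primaries that differed by at least 1 for every member but Cd68.

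**Figure D3:**
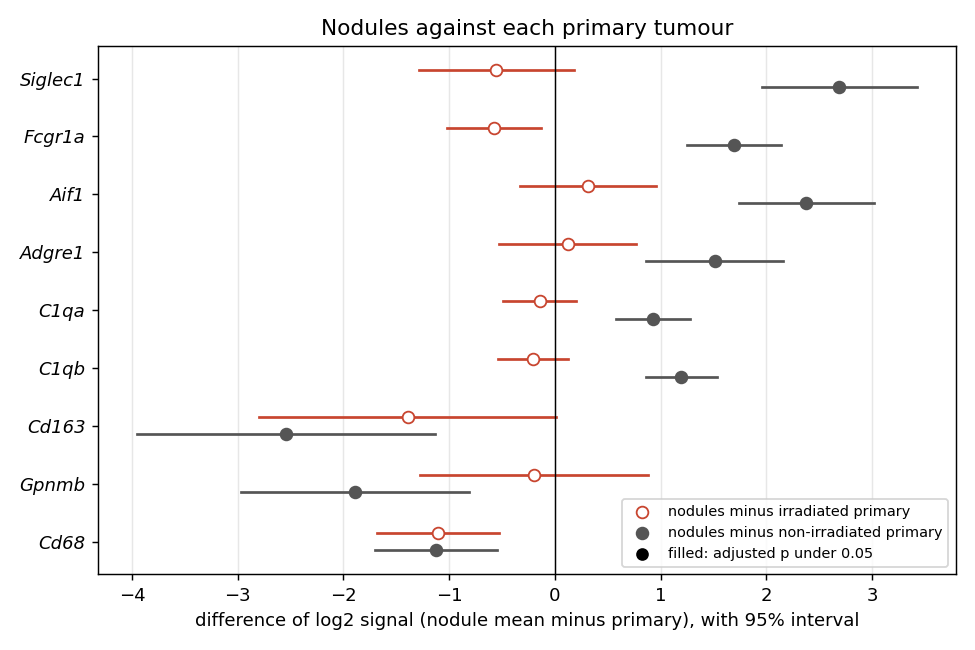
Difference of log2 signal between the mean of the 3 nodules and the irradiated primary (red) or the non-irradiated primary (grey) for each gene, with the 95% interval from limma. Filled points have an adjusted p under 0.05. The 9 grey points are filled, 6 to the right of 0 and 3 to the left, and the red points are open, with the interval of Cd163 just reaching 0.0141 and those of Fcgr1a and Cd68 below 0.

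Between the primaries, with 1 array each and so with no test, 8 of 9 members differed by at least 1 on the log2 scale, where 16.4% of features well above background on either array did (9.3% higher in the irradiated primary and 7.13% lower). Siglec1 was 9.46-fold higher in the irradiated primary, Fcgr1a 4.83-fold, Aif1 by its brighter probe 4.18-fold, C1qb 2.65-fold, Adgre1 2.62-fold and C1qa 2.11-fold. Gpnmb was 3.23-fold and Cd163 2.22-fold lower there, and Cd68 differed by -0.018. Between pairs of nodules, 5.21%, 7.04% and 2.26% of features differed by at least 1. Of the members, only Cd163 did so, between nodule 1 and nodule 2 (1.28) and between nodule 1 and nodule 3 (1.00). The Siglec1 difference between the primaries shrank from 3.24 to 1.47 when the background was corrected by normexp, and that of Aif1 from 2.07 to 0.073 when its probes were averaged.

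As a description over 5 arrays, the closest pair of members was C1qa and C1qb, with a Pearson correlation of 0.998. Among 3124 named genes that were well above background on all arrays and spanned at least 1 log2 unit, the genes most like each member reached 0.995 or more, a figure that many genes can reach over so few arrays. Beside C1qa, the nearest to C1qb were Josd2 and Pcsk1n. Those nearest to Fcgr1a were Nck2, Pf4 and Loxl2, and those nearest to Adgre1 were Ly86, Ift80 and Tomm40l. Sp140, Abcb1b and Bag2 came nearest to Siglec1, and Ptpn18, Usp47 and Trmt1l to the brighter Aif1 probe. For the genes that were lower in the nodules these were Apol3l1, Adamtsl3 and Cetn4 for Cd163, Tex19.2, Peli1 and Azin2 for Gpnmb, and Whrn, Tlr3 and Plekhb1 for Cd68.

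Other genes of macrophages and monocytes were read from lists of their own. Of 21 tested, 3 were higher and 1 lower in the nodules than in the non-irradiated primary, with a median of 0.61. Over all features 9.72% were called higher and 8.85% lower there, with a median of 0.038. Trem2, a lipid-sensing receptor of microglia and macrophages, was 1.56 higher (adjusted p = 0.033, limma), Csf1r, the receptor for the macrophage growth factor, 1.29 higher (adjusted p = 0.028, limma) and Lgals3, a secreted lectin, 1.01 higher (adjusted p = 0.0207, limma). Cx3cr1, the fractalkine receptor of microglia and monocytes, opposed them, with -1.18, -1.23 and -1.34 in the nodules, -3.21 in the irradiated primary and -0.27 in the non-irradiated primary. It was the 1 gene among the 21 called against the irradiated primary, where 3.72% of all features were called. Cx3cr1 was 1.96 higher in the nodules than in that primary (adjusted p = 0.0139, limma). It was 0.98 lower in them than in the non-irradiated primary (adjusted p = 0.0244, limma). Laptm5, a lysosomal protein of blood cells, read 4.52, 4.45 and 4.05 in the nodules, 4.23 in the irradiated and 3.85 in the non-irradiated primary, and Spi1, which encodes PU.1, read -1.69, -1.77 and -2.16, then -1.64 and -1.58.

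The label was set against markers of microglia and of alveolar macrophages. Of 9 microglia genes on the array, P2ry13 was not well above background anywhere, P2ry12, a purine receptor that marks resting microglia, read -3.91, -3.87 and -3.97 in the nodules, -4.30 in the irradiated and -4.53 in the non-irradiated primary, and 6 were above background on all 5 arrays. Besides Trem2, Gpr34 was at least 1.46-fold higher and Slc2a5 at least 4.57-fold lower in the nodules than in the non-irradiated primary. Slc2a5 entered the test only through the primaries, where it was high, so its bound is not read as support. From these genes the 2 cell types cannot be told apart. Of 4 alveolar macrophage genes tested, 0 passed against the irradiated primary and 0 against the non-irradiated primary. Over all features 3.72% and 18.6% were called in these comparisons, so 0 calls among 4 genes is not read as a result. Marco, a scavenger receptor, entered the test only through the nodules, so its call against the mean of both primaries is not read as support. It was well above background in the nodules alone, at -4.86, -4.89 and -5.86, which is at least 1.78-fold above the irradiated and at least 1.89-fold above the non-irradiated primary.

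Genes of macrophage activation were counted in the same way, beside 9.72% of all features called higher and 8.85% lower than in the non-irradiated primary. Of 15 scavenger genes tested, Lyve1, a hyaluronan receptor, was 1.37 higher (adjusted p = 0.0434, limma) and Msr1, a scavenger receptor for modified lipoproteins, 0.84 higher in the nodules than in the non-irradiated primary (adjusted p = 0.0455, limma), and 0 were lower. Mrc1, the mannose receptor often named with Cd163, read -2.13, -2.20 and -1.70 in the nodules, -1.07 in the irradiated and -1.04 in the non-irradiated primary. Like Cd68 it was lower in every nodule than in both primaries, and it passed only against their mean (-0.95, adjusted p = 0.0434, limma). Arg1, which degrades arginine, was lower in every nodule than in the irradiated primary. It read -1.95 in that primary and -6.10 in nodule 2, and was not well above background in nodules 1 and 3. Arg1 entered the test only through the primaries, where it was high, so neither the size of the difference nor a p-value is given. Clec10a, a lectin for galactose, was at least 2.14-fold lower than in the irradiated primary. It entered the test only through that primary, where it was high, so this bound is not read as support.

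Of 14 inflammatory genes tested, 4 were higher and 1 lower in the nodules than in the non-irradiated primary, and 0 were higher and 2 lower than in the irradiated primary (median -1.16 there). The chemokines Ccl3 and Ccl4 were at least 5.92-fold and at least 1.96-fold higher than in the non-irradiated primary, where they were not well above background. Cxcl10, a chemokine induced by interferon, was 2.47 lower than in the irradiated primary (adjusted p = 0.013, limma), and Ccl2, which attracts monocytes, 2.09 lower (adjusted p = 0.0329, limma). Of 14 interferon-stimulated genes, 3 were higher and 2 lower than in the non-irradiated primary, and 0 higher and 6 lower than in the irradiated primary. Beside both lists, 9.72% of all features were called higher and 8.85% lower than in the non-irradiated primary. Against the irradiated primary the shares were 0.909% higher and 2.81% lower. Of the 6 lower genes, Rsad2 and Ifit3 were not well above background in any nodule and entered the test only through the primaries. Irf7, an interferon regulator, was 2.77 higher than in the non-irradiated primary (adjusted p = 0.00909, limma). It was 0.79 lower than in the irradiated primary without passing (adjusted p = 0.117, limma). Isg15, a ubiquitin-like modifier, was 1.14 lower than in the non-irradiated primary (adjusted p = 0.0296, limma) and 4.42 lower than in the irradiated primary (adjusted p = 0.00661, limma).

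Other genes of the members' own pathways were mixed as well. Of 6 complement genes tested besides C1qa and C1qb, C3, the central component, was 3.61 higher than in the non-irradiated primary (adjusted p = 0.0126, limma) and 2.50 higher than in the irradiated primary (adjusted p = 0.0396, limma). Of 18 lysosomal genes besides Gpnmb and Cd68, 1 was higher than in the non-irradiated primary, Npc1, a cholesterol transporter (0.90, adjusted p = 0.0211, limma), and 0 were lower. Over all features 9.72% were called higher and 8.85% lower there, so 0 lower calls among 18 genes is not read as a result. The median of the lysosomal genes was 0.13 there, with 11 above 0 and 7 below. Of 8 growth factors and attractants, Csf1, the ligand of Csf1r, was 1.44 higher than in the non-irradiated primary (adjusted p = 0.0218, limma), and Ccl7 was 1.79 lower than in the irradiated primary (adjusted p = 0.0342, limma).

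**Figure D4:**
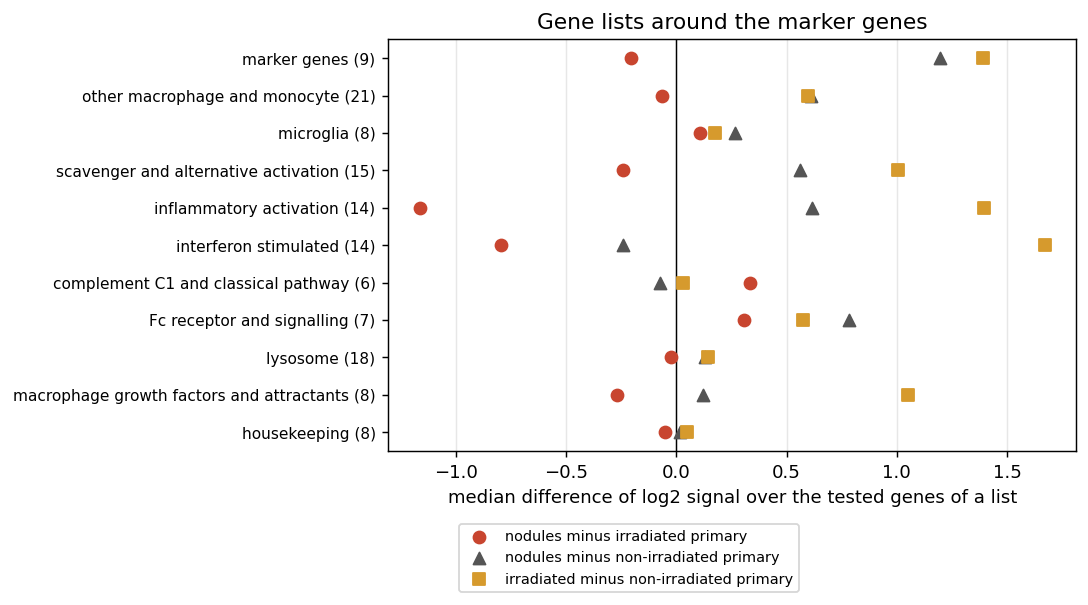
Median difference of log2 signal over the tested genes of each list (number in brackets) for the nodules minus the irradiated primary (red circles), the nodules minus the non-irradiated primary (grey triangles) and the irradiated minus the non-irradiated primary (yellow squares). The marker genes have medians of -0.21, 1.20 and 1.39. Inflammatory and interferon-stimulated genes have their lowest medians against the irradiated primary, -1.16 and -0.79, and the lysosomal list stays near 0.

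Markers of other tissues differed between the arrays, and their part in the values of the members was not tested. The mean level of 6 skeletal muscle genes was -3.48 to -2.75 in the nodules, 4.07 in the irradiated primary and 1.54 in the non-irradiated primary. The mean level of 7 genes of alveolar and club cells was 2.02, 0.21 and -5.94 in nodules 1, 2 and 3 and -5.98 and -5.52 in the irradiated and non-irradiated primaries, and that of 6 heart genes was 2.78 in nodule 3 and -3.54 to -3.46 in the other nodules. Of 8 neutrophil genes 4 (S100a8, Elane, Ngp and Ltf) and of 10 T and NK cell genes 4 (Cd3e, Cd8a, Prf1 and Klrd1) were not well above background on any array. The neutrophil genes well above background numbered 4, 4 and 2 in nodules 1, 2 and 3, 2 in the irradiated primary and 1 in the non-irradiated primary. For the T and NK cell genes these numbers were 3 in each nodule, 6 in the irradiated primary and 3 in the non-irradiated primary. The mean level of the T and NK cell list was -6.77 to -6.38 in the nodules, -5.35 in the irradiated and -6.18 in the non-irradiated primary. The mean level of 8 housekeeping genes was 4.66 to 4.86 in the nodules, 4.99 in the irradiated and 4.94 in the non-irradiated primary. Of these 8, B2m was called lower in the nodules than in the non-irradiated primary (-1.21, adjusted p = 0.0437, limma), as were 8.85% of all features. Against the mean of both primaries B2m (-1.05, adjusted p = 0.0409, limma) and Gapdh (-0.61, adjusted p = 0.0294, limma) were called lower, and 0 were called higher. Over all features 8.58% were called lower and 6.99% higher against that mean, so 0 higher calls among 8 genes is not read as a result.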

How the data were processed

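RNA of 5 tumours was measured on single-colour (Cy3) Agilent rat arrays. Per the file headers, the deposited intensity values were background-subtracted and detrended array by array in Feature Extraction 11.0. The deposited spot flags are other values of 0 or 1 from the same software. The authors' deposited matrix holds log2 values of 18502 probes, without the probe of Siglec1 and the second of Aif1, and was used as an alternative. Outlier and control spots were left out, and log2 signals of a probe's spots were averaged and scaled by each array's 75th percentile. A probe entered the test if some group had it well above background on each of its arrays, and a gene was represented by its brightest probe. R 4.3.3 and limma 3.58.1 (3 group means, eBayes with an intensity trend) gave 18913 features, and the code was tested on simulated data. Names came through RefSeq accessions. The number of arrays limits the precision: 5 arrays, 1 for each primary. The planned normexp correction (offset 50) used median spot signals. The members, gene lists and motifs were chosen with earlier results of these data known. All members were named with every probe. From each list, at most 4 genes called in any comparison were eligible, by size. Msr1, Mrc1, Laptm5, Spi1 and P2ry12 were added after their values were seen. Not every eligible gene is reported here.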

Additional observations from a re-analysis of the deposited data

How the results depend on the processing

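Each of 13 alternatives was run for the comparisons with the primaries. Against the irradiated primary, the 704 features called became 438 with scaling to the array median and 399 without an intensity trend, and 0 to 3187 without 1 nodule. Against the non-irradiated primary the 3512 calls ranged from 0 to 6406 without 1 nodule, and against the mean of both primaries the 2945 calls became 1626 without an intensity trend and 12 to 5771 without 1 nodule. The 3030 features that differed by at least 1 between the primaries became 1495 under normexp. Against the irradiated primary 0 members passed under the processing alternatives, and without nodule 1, 4 passed (Cd163, Cd68, Fcgr1a and Gpnmb), all lower in the nodules, beside 16.9% of all features. Averaging a gene's probes turned Aif1 to -0.66, -0.59 and -0.62 against the irradiated primary, the non-irradiated primary and their mean. Adgre1 ranged from -0.040 (without nodule 1) to 0.22 against the irradiated primary when 1 nodule was left out. The cause of these shifts was not tested, except that averaging the probes brings in the dim Aif1 probe. Without nodule 2, limma called 0 features against the non-irradiated primary and 4987 had an unadjusted p under 0.05. No paired analysis was possible because the primaries carry no replicate number. Signal over background limits the second Aif1 probe to a bound.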
